A study of Mus musculus with 8 samples.

Results

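The interferon regulatory factors are a family of transcription factors, of which 8 genes are described here. They are Irf1, Irf2, Irf3, Irf4, Irf5, Irf7, Irf8, and Irf9, found in the count table by their gene names. They were 8 of the 54532 genes in the table, and all 8 were among the 18511 genes tested after a filter on low counts. Expression was measured by bulk RNA-seq of poly-A RNA from whole 4T1 tumors, a mouse model of triple-negative breast cancer grown from 4T1 cells carrying firefly luciferase. The cells were injected under the skin of immunocompetent female BALB/cJ mice aged 6 weeks. The control group was 4 mice given saline, whose treatment label reads PBS control. The treated group was 4 mice given mAb-DXd/IMQ (labeled HumCD276-Dxd/IMQ), a humanized antibody against CD276 loaded with the TOP1 inhibitor DXd and with IMQ, which is an agonist of TLR7 and TLR8. Mice received 5 intravenous courses of 16 mg/kg of the conjugate, 4 days apart, and the tumors were taken when the study ended. The study reported a much smaller mean tumor volume in the treated group by then, and extensive tumor cell death on stained sections. The part of these differences in the levels below was not tested. Neither payload alone nor the unconjugated antibody was a group in this comparison. Total counts were between 34591912 and 69582375 per tumor. All 5 epithelial markers listed for the tumor cells were detected, with Epcam at a mean of 374 CPM in saline tumors and 508 CPM in treated tumors (CPM, counts scaled to library size with edgeR's TMM factors).

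Interferon regulatory factors bind related DNA elements through a shared N-terminal domain and control interferon genes and interferon-stimulated genes. IRF3, IRF5, and IRF7 are activated downstream of nucleic acid sensors, including the Toll-like receptors that imidazoquinolines engage, and IRF9 joins STAT2 in a complex that acts on the interferon-stimulated response element (ISRE). IRF1 activates and IRF2 often represses at shared sites, whereas IRF4 and IRF8 act mainly in leukocytes, where they direct lymphoid and myeloid differentiation.

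The clearest differences between mAb-DXd/IMQ and saline tumors were in Irf7 and Irf2, although neither passed both thresholds. The mean of Irf7 was 122 ± 49.9 CPM (SD, n = 4) in the saline group and 271 ± 16.4 CPM (SD, n = 4) in the treated group, and Irf2 had 82.5 ± 6.57 CPM and 58.2 ± 3.74 CPM. For both genes the groups did not overlap. Irf4 and Irf8 had lower means in mAb-DXd/IMQ tumors with groups that overlapped, and the means of Irf1, Irf3, Irf5, and Irf9 differed by less than the SD of the more variable group.

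By edgeR's quasi-likelihood test with Benjamini-Hochberg adjustment, 0 of the 8 genes passed both thresholds (FDR under 0.05 and absolute log2 fold change above 0.58), where 1.06% of all tested genes did. Irf2 was past the FDR threshold, as were 1.33% of tested genes when the size of the fold change is not considered, and 4 genes (Irf2, Irf4, Irf7, and Irf8) had an unadjusted p under 0.05, as did 18.9%. DESeq2 placed 2 of the 8 past both thresholds (Irf4 and Irf7), where it placed 787 of all 18511 tested genes, and limma voom placed 0 of the 8 and 174 of all. Groups without overlap were found for 2 of the 8, against 13.1% of tested genes (5.97% higher and 7.10% lower in mAb-DXd/IMQ tumors). Log2 fold changes were above 0 for 3 members and below 0 for 5, with a median of -0.15, beside a median of 0.02 over all tested genes. Across all genes, 197 passed both thresholds, 101 higher and 96 lower, and with upper quartile factors the split was 145 higher and 73 lower.

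**Figure D1:**
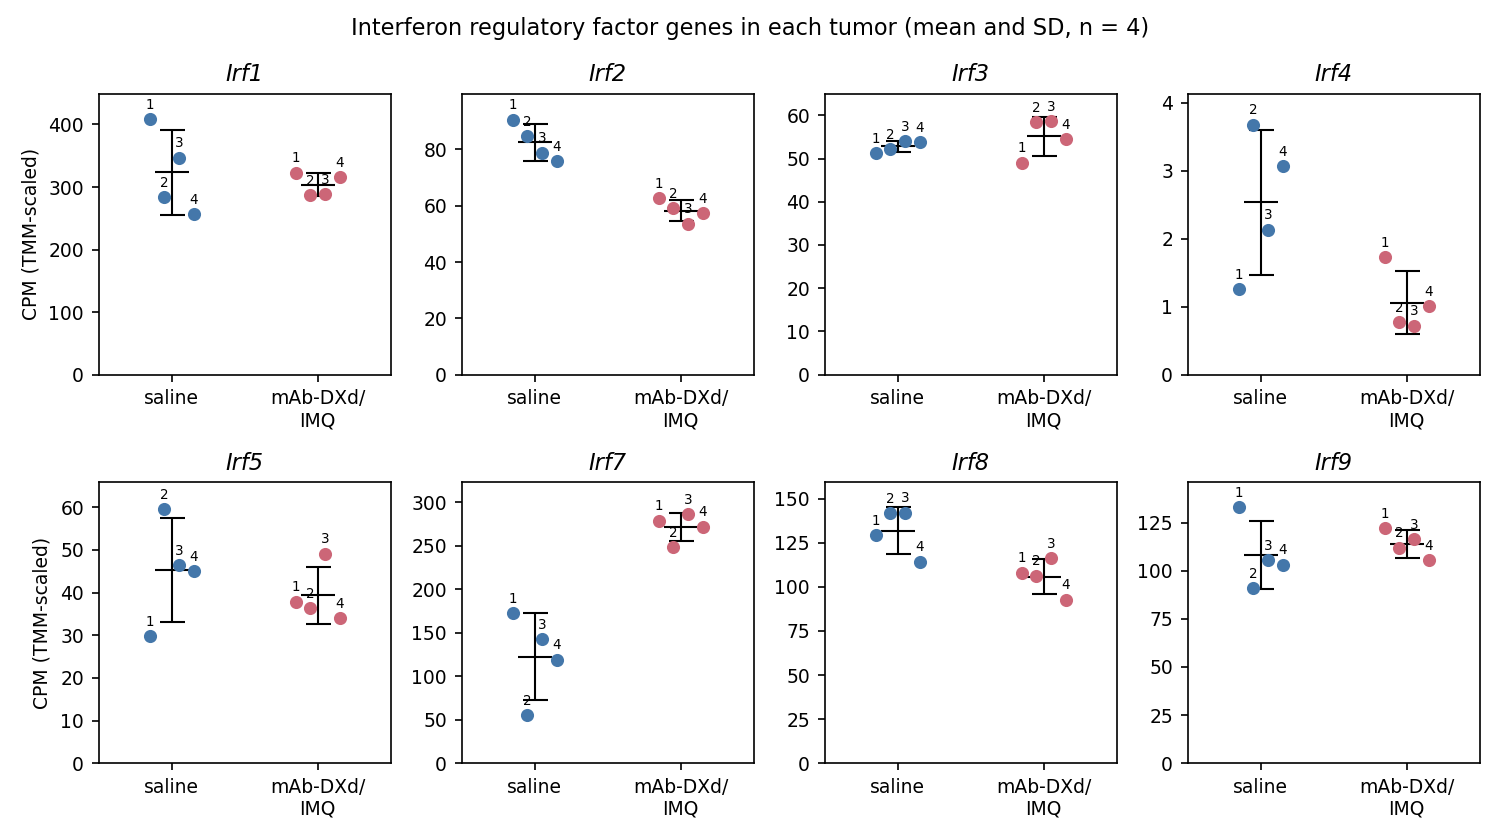
Level of each interferon regulatory factor gene in each tumor, in TMM-scaled CPM on axes that start at 0. Points are tumors with their replicate numbers, and bars are the mean and SD (n = 4). Irf7 lay between 55.2 and 173 CPM in saline tumors and from 249 to 287 CPM in treated tumors, and Irf2 from 75.8 to 90.6 CPM and from 53.6 to 62.6 CPM.

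The promoters of these genes were searched for the element that interferon regulatory factors bind and for the gamma-activated sequence (GAS). The ISRE core was written GAAANNGAA and the GAS TTCNNNGAA, and both strands were searched in the 300 bases from 250 before to 50 after each RefSeq start site (GRCm38.p6). The 8 genes had 11 promoters in the table. The ISRE core was found in 1 of these 11 (9.09%) and in 8.56% of all 32851 promoters, and GAS in 3 of 11 (27.3%) and in 8.3% of all promoters. The 4 stretches below are the upstream parts of the promoters of Irf7 and Irf2, whose groups did not overlap, and of Irf1 and Irf8, which held the other GAS matches. Capitals mark the matches. They are Irf7 at chr7:141266482-141266674 on the minus strand, Irf2 at chr8:46739495-46739731, Irf1 at chr11:53769764-53770013, and Irf8 at chr8:120736108-120736357, the last 3 on the plus strand.

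Irf7: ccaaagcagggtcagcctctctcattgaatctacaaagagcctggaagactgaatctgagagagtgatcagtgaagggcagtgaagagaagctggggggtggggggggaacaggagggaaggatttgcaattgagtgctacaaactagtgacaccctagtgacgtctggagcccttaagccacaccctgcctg
Irf2: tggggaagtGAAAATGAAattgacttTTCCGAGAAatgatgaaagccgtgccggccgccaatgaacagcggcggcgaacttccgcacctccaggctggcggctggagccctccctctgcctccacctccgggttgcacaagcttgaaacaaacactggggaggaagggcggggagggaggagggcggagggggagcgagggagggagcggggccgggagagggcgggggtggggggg
Irf1: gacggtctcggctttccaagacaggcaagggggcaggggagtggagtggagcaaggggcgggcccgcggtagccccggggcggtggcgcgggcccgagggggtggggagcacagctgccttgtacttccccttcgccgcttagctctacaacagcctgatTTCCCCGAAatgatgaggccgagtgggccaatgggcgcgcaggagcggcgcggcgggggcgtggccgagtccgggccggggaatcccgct
Irf8: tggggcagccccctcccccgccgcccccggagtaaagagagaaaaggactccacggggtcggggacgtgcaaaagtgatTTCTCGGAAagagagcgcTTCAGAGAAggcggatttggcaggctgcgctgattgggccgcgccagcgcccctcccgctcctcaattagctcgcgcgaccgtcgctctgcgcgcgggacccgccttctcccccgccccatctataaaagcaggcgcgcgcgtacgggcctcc

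Irf2 held an ISRE core at -241 and a GAS at -224 from its start site, both within the printed stretch. Irf1 held a GAS at -90, and Irf8 held a GAS at -171 and another at -153. Neither string of letters occurred in the window of Irf7, which says only that they are not in these 300 bases. A match describes letters and does not show that a factor was bound.

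Among the factors activated by nucleic acid sensing, Irf7 varied most between tumors. It encodes the interferon-inducible factor that amplifies type I interferon production (ENSMUSG00000025498, chromosome 7 from 141262706 to 141266481, minus strand, GRCm38). Its level was 173, 55.2, 143, and 119 CPM in saline tumors 1 to 4 and 279, 249, 287, and 272 CPM in treated tumors 1 to 4. Every mAb-DXd/IMQ tumor was above every saline tumor, and saline tumor 2 was the lowest of the 8. The coefficient of variation was 40.8% among saline tumors and 6.05% among mAb-DXd/IMQ tumors. The log2 fold change was 1.15 (standard error 0.27), a fold of 2.22, with an FDR of 0.0591 from edgeR that missed the threshold. Without saline tumor 2 it was 0.91 (edgeR FDR 0.0345), and without saline tumor 1, the highest of its group, it was 1.36 (edgeR FDR 0.0433). Irf7 also passed with DESeq2 (FDR 0.00126) and without the filter on low counts (edgeR FDR 0.0199). Over all 19 alternatives its log2 fold change lay between 0.91 and 1.36 and its FDR between 0.00126 and 0.175.

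Irf3 encodes the constitutively expressed partner of IRF7 in the antiviral response (ENSMUSG00000003184, chromosome 7 from 44997648 to 45002848). It had 51.2, 52.1, 54.0, and 53.8 CPM in the saline tumors and 49.1, 58.5, 58.7, and 54.5 CPM in the mAb-DXd/IMQ tumors. The saline values were close together, with a coefficient of variation of 2.59%, and they lay within the range of the treated group. Its log2 fold change was 0.06 (standard error 0.10, edgeR FDR 0.771) and between 0.03 and 0.11 over the alternatives. Irf5, which acts downstream of MyD88 in myeloid cells and B cells (ENSMUSG00000029771, chromosome 6 from 29526625 to 29541871), had 29.8, 59.6, 46.4, and 45.0 CPM in saline tumors and 37.9, 36.4, 49.1, and 34.0 CPM in treated tumors. Saline tumors 1 and 2 held both the lowest and the highest value, so that the treated range lay inside the saline range. The log2 fold change of Irf5 was -0.20 (standard error 0.19, edgeR FDR 0.620), and it was -0.04 without saline tumor 2 and -0.36 without saline tumor 1. Exons of Irf5 share 411 bases, 14.1% of its exon bases, with Tnpo3 on the opposite strand, and since no source used here states whether counting used strand, some Irf5 counts may belong to Tnpo3. The same holds on a smaller scale for Irf7, which shares 45 exon bases (1.19%) with Phrf1, Irf1 (135 bases with Gm17334), and Irf3 (88 bases with Bcl2l12). Irf9 shares 123 exon bases with Rnf31 on the same strand.

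The activator Irf1 and its antagonist Irf2 differed in pattern. Irf2 (ENSMUSG00000031627, chromosome 8 from 46739732 to 46847458) had 90.6, 84.7, 78.9, and 75.8 CPM in saline tumors and 62.6, 59.1, 53.6, and 57.3 CPM in treated tumors. All 4 treated values were below all 4 saline values, with little spread inside either group (coefficients of variation of 7.97% and 6.42%). Its log2 fold change of -0.50 (standard error 0.10, fold 0.705, edgeR FDR 0.0427) was past the FDR threshold but smaller than the fold change limit. Leaving out any tumor except mAb-DXd/IMQ tumor 1 raised the edgeR FDR to between 0.0691 and 0.119. An offset for gene length, 7396 bases for Irf2, moved the log2 fold change to -0.41 and the edgeR FDR to 0.0901. With a replicate block the edgeR FDR was 0.108. Irf1 (ENSMUSG00000018899, chromosome 11 from 53770014 to 53778374) had 409, 284, 347, and 256 CPM in saline tumors and 323, 287, 289, and 316 CPM in treated tumors. The treated values lay within the saline range, whose highest value was in saline tumor 1 and lowest in saline tumor 4. The log2 fold change of Irf1 was -0.09 (standard error 0.15, edgeR FDR 0.784), and it was 0.04 without saline tumor 1.

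Irf9, the DNA-binding subunit of the ISRE complex (ENSMUSG00000002325, chromosome 14 from 55603571 to 55610030), had 133, 91.0, 105, and 103 CPM in saline tumors. In mAb-DXd/IMQ tumors it had 122, 112, 116, and 105 CPM. As for Irf1, saline tumor 1 was the highest of the 8, and the groups overlapped. The log2 fold change was 0.08 (standard error 0.12, edgeR FDR 0.794) and was -0.0010 without saline tumor 2 and 0.19 without saline tumor 1.

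The related leukocyte factors Irf8 and Irf4 were both lower on average in mAb-DXd/IMQ tumors. Irf8, which is needed for monocyte and type 1 dendritic cell development (ENSMUSG00000041515, chromosome 8 from 120736358 to 120756694), had 129, 142, 142, and 114 CPM in saline tumors and 108, 106, 116, and 92.6 CPM in treated tumors. The groups met only where mAb-DXd/IMQ tumor 3 exceeded saline tumor 4. Its log2 fold change was -0.32 (standard error 0.11, edgeR FDR 0.164). Irf4, a factor of activated T cells, plasma cells, and some dendritic cells (ENSMUSG00000021356, chromosome 13 from 30749226 to 30766976), had 62, 163, 119, and 210 counts in saline tumors and 84, 36, 33, and 36 counts in mAb-DXd/IMQ tumors. These corresponded to 1.26, 3.68, 2.13, and 3.07 CPM and to 1.73, 0.771, 0.721, and 1.01 CPM. Saline tumor 1 was the lowest of its group and lay below mAb-DXd/IMQ tumor 1, and the other saline tumors were above every treated tumor. The log2 fold change was -1.26 (standard error 0.41, fold 0.419), with an edgeR FDR of 0.131 and a DESeq2 FDR of 0.0362. In bulk tumor tissue, fewer cells of a type and less RNA per cell cannot be told apart.

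**Figure D2:**
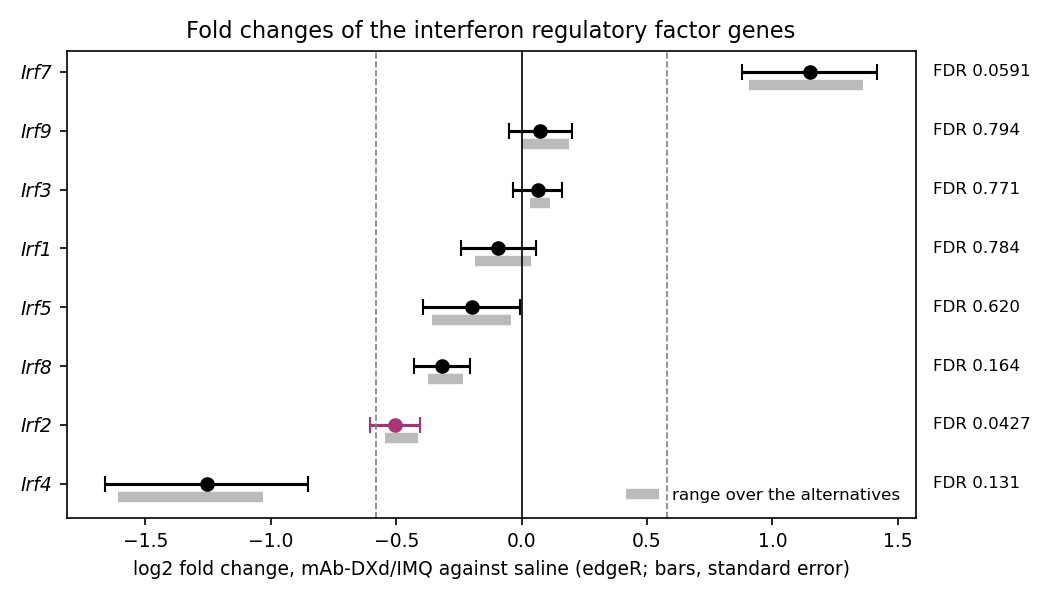
Log2 fold change of each gene in mAb-DXd/IMQ tumors against saline tumors by edgeR, with its standard error and its FDR at the right. Grey bars span the values under the 19 alternatives, dashed lines mark the fold change limit of 0.58 in either direction, and the colored point is the gene under the FDR threshold (Irf2, -0.50). The grey bar of Irf7 runs from 0.91 to 1.36, and the grey bars of Irf1 and Irf9 reach across 0.

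Levels were compared between genes as RPKM (TMM-scaled CPM per 1000 bases of the deposited gene length). In saline tumors the mean levels were Irf1 81.4, Irf7 32.4, Irf9 20.1, Irf8 18.7, Irf5 15.6, Irf3 15.3, Irf2 11.2, and Irf4 0.517 RPKM. Irf1 was above Irf7 in 4 of 4 saline tumors with separate ranges, whereas the neighbors from Irf7 down to Irf3 overlapped each other in turn. The range of Irf2 was separate from that of Irf3 above it but not from that of Irf5, and Irf4 was the lowest, with a separate range. In mAb-DXd/IMQ tumors the order was Irf1 76.3, Irf7 71.9, Irf9 21.1, Irf3 16, Irf8 15, Irf5 13.5, Irf2 7.86, and Irf4 0.216 RPKM. Here the ranges of Irf1 and Irf7 overlapped, with Irf1 higher in 3 of 4 tumors, and Irf7 was separate from Irf9 below it, as was Irf9 from Irf3. Irf3 overlapped Irf8, and Irf8 overlapped Irf5, whereas Irf2 was separate from Irf5 above it.

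The summed level of the 8 genes was 195 ± 28.2 RPKM (SD, n = 4) in the saline group and 222 ± 8.26 RPKM in mAb-DXd/IMQ tumors. Irf7 made up 19.96%, 8.56%, 18.2%, and 18.2% of that sum in saline tumors 1 to 4 and 32.2%, 31.1%, 33.3%, and 32.8% in mAb-DXd/IMQ tumors 1 to 4. The treated tumors were close to each other and above every saline tumor. The share of Irf1 was 41.5 ± 3.16% and 34.4 ± 1.90%, and that of Irf2 was 5.78 ± 0.700% and 3.55 ± 0.264%, in saline and mAb-DXd/IMQ tumors. A larger share of Irf7 lowers the shares of the other genes by construction.

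**Figure D3:**
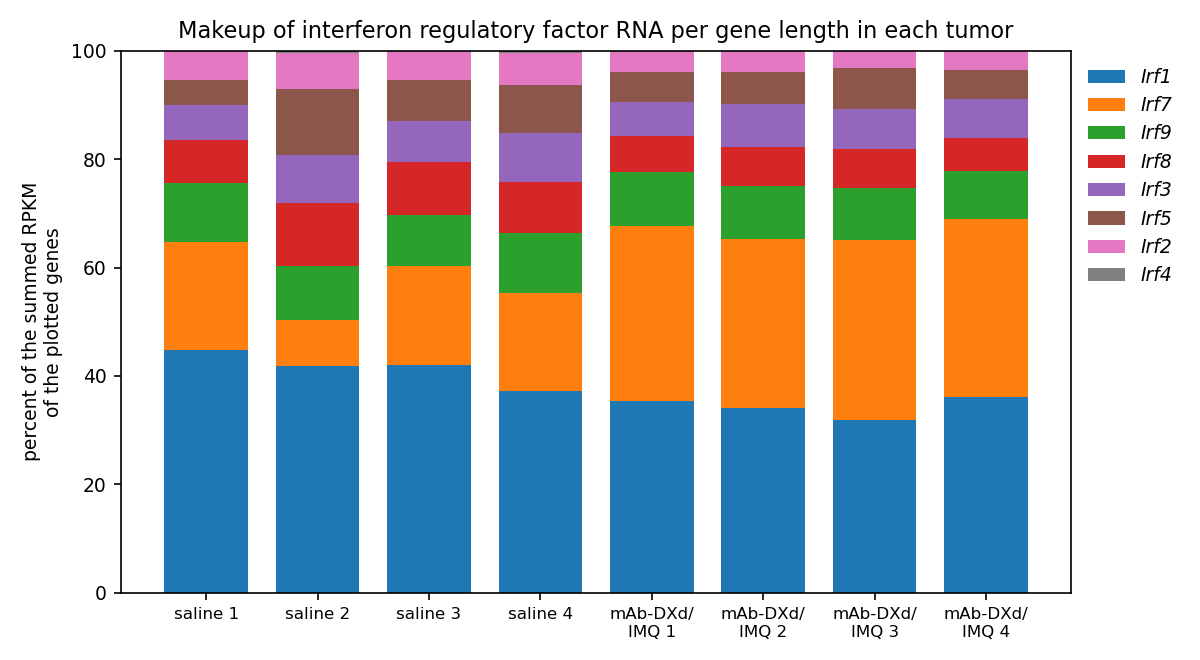
Share of each gene in the summed RPKM of the 8 interferon regulatory factor genes, in percent, with 1 stacked bar per tumor. The Irf7 segment runs from 8.56% to 19.96% in saline tumors and from 31.1% to 33.3% in treated tumors, and Irf1 is the largest segment except in mAb-DXd/IMQ tumor 3.

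Ratios between pairs of these genes within a tumor need no scaling between libraries. The 3 pairs were chosen with fold changes of these tumors already known, so the ratios describe these differences again and no p is given for them. The log2 ratio of Irf7 to Irf3 counts was 1.76, 0.08, 1.40, and 1.14 in saline tumors and 2.51, 2.09, 2.29, and 2.32 in mAb-DXd/IMQ tumors. Each treated tumor was above each saline tumor, and saline tumor 2 stood lowest. The mean difference was 1.20. For Irf1 to Irf2 the log2 ratio was 2.17, 1.74, 2.14, and 1.76 in saline tumors and 2.37, 2.28, 2.43, and 2.46 in mAb-DXd/IMQ tumors. These groups did not overlap either, with saline tumors 2 and 4 the lowest, and the mean difference was 0.43. For Irf8 to Irf4 it was 6.67, 5.26, 6.05, and 5.21 in saline tumors and 5.95, 7.09, 7.31, and 6.5 in mAb-DXd/IMQ tumors. Saline tumors 1 and 3 lay within the treated range, and the mean difference was 0.91.

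Upstream of these factors, 0 of 22 sensors, adaptors, and kinases passed both thresholds with edgeR, where 1.06% of all tested genes did. An unadjusted p under 0.05 was found for 6 of the 22, beside 18.9% of all tested genes. DESeq2 placed 1 past the thresholds, where it placed 787 of all 18511, and limma voom placed 0, where it placed 174. Of the 22, 8 had a log2 fold change above 0, beside 52.6% of all tested genes. The median was -0.10 (between -0.14 and -0.05 over the alternatives), beside 0.02 over all genes. The 3 most abundant were Ikbkb, an IkB kinase that also activates IRF5, Unc93b1, the chaperone that brings endosomal Toll-like receptors to their compartment, and Irak1, a kinase downstream of MyD88. Their log2 fold changes were 0.03 (standard error 0.11) for Ikbkb, -0.46 (standard error 0.31) for Unc93b1, and -0.38 (standard error 0.10) for Irak1, with edgeR FDRs of 0.914, 0.448, and 0.0692. That of Unc93b1 was -0.13 without saline tumor 2 and -0.72 without saline tumor 1. Irak1 had 134, 147, 135, and 138 CPM in saline tumors and 99.8, 117, 106, and 103 CPM in treated tumors, without overlap. Groups did not overlap for 3 other genes of the 22, all higher in mAb-DXd/IMQ tumors, as were 5.97% of tested genes.

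Interferon ligand transcripts were scarce. Of 10 ligand genes, Ifng alone had enough counts to be tested, with 2.94, 1.87, 2.87, and 1.57 CPM in saline tumors and 1.22, 1.26, 0.633, and 1.46 CPM in treated tumors. The highest treated value, in tumor 4, was below the lowest saline value, also in tumor 4. Its log2 fold change was -1.02 (standard error 0.34, edgeR FDR 0.145). Ifna1, Ifna2, and Ifna5 had no count in any tumor. At 3 counts this allows at most between 0.0431 and 0.0867 CPM, scaled to total counts without TMM factors, for counting error only. Ifnb1 and Ifnk, the next most abundant ligands, had means of 0.176 and 0.145 CPM in saline tumors and 0.140 and 0.0935 CPM in treated tumors. Ifnk was at 0.429 CPM in saline tumor 2 and at most 0.117 CPM in the other saline tumors.

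Among the interferon receptors, Janus kinases, and STATs, 0 of 9 passed both thresholds with edgeR, where 1.06% of all tested genes did. An unadjusted p under 0.05 was found for 2 of the 9, beside 18.9% of all tested genes. DESeq2 and limma voom each placed 0 past the thresholds, where they placed 787 and 174 of all tested genes. Groups did not overlap for 1 of the 9, lower in mAb-DXd/IMQ tumors, as were 7.10% of tested genes. Of the 9 genes, 2 had a log2 fold change above 0, which became 5 with upper quartile factors and 3 with library sizes alone. The median was -0.05 (between -0.125 and 0.03 over the alternatives). For the kinase Jak2 the log2 fold change was -0.45 (standard error 0.18, edgeR FDR 0.214; -0.27 without saline tumor 1), and that of the ISRE complex partner Stat2 was -0.02 (standard error 0.22, edgeR FDR 0.973). The sign of Stat2 changed with upper quartile factors. The summed level of the 9 genes was 1723, 1323, 1418, and 1391 CPM in saline tumors and 1317, 1296, 1234, and 1233 CPM in treated tumors. These sums did not overlap, with saline tumor 1 the highest and saline tumor 2 close to mAb-DXd/IMQ tumor 1. Jak2, the most abundant of the 9, had overlapping groups, with means of 551 CPM in saline and 404 CPM in treated tumors. The part of Jak2 in the separation of the sums was not tested.

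Of 15 partners and regulators of these factors, 0 passed both thresholds with edgeR, where 1.06% of all tested genes did. An unadjusted p under 0.05 was found for 6 of them, beside 18.9% of all tested genes. DESeq2 placed 1 of the 15 past the thresholds, where it placed 787 of all 18511, and limma voom placed 0, where it placed 174. Of the 15, 6 had a log2 fold change above 0, beside 52.6% of all tested genes. The median was -0.12 but near 0 without saline tumor 1 (-0.0073) or mAb-DXd/IMQ tumor 4 (-0.0045). Irf2bp2, which encodes an IRF2-binding corepressor, and the related gene Irf2bpl had log2 fold changes of -0.32 (standard error 0.13, edgeR FDR 0.224) and -0.42 (standard error 0.10, edgeR FDR 0.0644). Irf2bpl had 171, 154, 156, and 170 CPM in saline tumors and 118, 136, 112, and 120 CPM in treated tumors, without overlap. Rbck1, a ubiquitin ligase subunit that acts on IRF3, differed by 0.20 on the log2 scale (standard error 0.12, edgeR FDR 0.407; 0.13 without mAb-DXd/IMQ tumor 4).

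Downstream, the genes known to respond through the ISRE had higher levels in mAb-DXd/IMQ tumors on average. Of 27 such genes, 27 had a log2 fold change above 0, where 52.6% of all tested genes did, and the median was 0.65, beside 0.02 over all genes. Both thresholds were passed by 2 of the 27, both higher, where 0.546% of tested genes were, and 8 had groups without overlap, all higher, as were 5.97% of tested genes. The list was drawn up when interferon-stimulated genes were already known to be higher in these tumors, so its direction is not independent evidence. Oas2 and Oasl1, members of the oligoadenylate synthetase family, were the genes that passed. Oas2 was at 81.8, 28.1, 92.5, and 78.3 CPM in saline tumors and at 139, 211, 251, and 302 CPM in treated tumors. It rose by a log2 fold change of 1.69 (standard error 0.34, edgeR FDR 0.0427). Oasl1 was at 37.1, 13.9, 35.4, and 24.6 CPM in saline tumors and at 72.1, 59.7, 61.4, and 63.1 CPM in treated tumors. It rose by a log2 fold change of 1.21 (standard error 0.25, edgeR FDR 0.0458). For both genes saline tumor 2 was the lowest tumor. The edgeR FDR was between 0.0543 and 0.134 for Oas2 without any 1 of saline tumors 1, 3, and 4 or mAb-DXd/IMQ tumors 2, 3, and 4, and between 0.0719 and 0.153 for Oasl1 without saline tumor 3 or 4 or any 1 mAb-DXd/IMQ tumor. With gene length offsets neither gene passed (edgeR FDR 0.0530 for Oas2 and 0.0579 for Oasl1). These genes belong to a family with similar sequences, so their counts carry some uncertainty.

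The 3 ISRE genes most abundant over the 8 tumors together did not pass. Bst2, which tethers virions to the cell surface, showed a difference of 0.89 on the log2 scale (standard error 0.33, edgeR FDR 0.179). Those of Oasl2 and Ifi44 were 0.54 (standard error 0.30, edgeR FDR 0.357) and 0.69 (standard error 0.26, edgeR FDR 0.178), and that of Oasl2 was 0.31 without saline tumor 2 and 0.85 without saline tumor 1. The summed level of the 27 genes was 3617, 1272, 2785, and 2063 CPM in saline tumors and 3789, 3552, 3951, and 4278 CPM in treated tumors. Saline tumor 2 was lowest for this sum as it was for Irf7, and saline tumor 1 was above mAb-DXd/IMQ tumor 2. Without saline tumor 2 the median log2 fold change of the list was 0.38, with 26 of 27 above 0. Of the 20 ISRE genes with a promoter in the table, 13 (65.0%) held the ISRE core, as did 9.76% of all genes there.

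The 20 genes known to respond to IRF1 and interferon gamma divided in direction, 9 above 0 and 11 below, with a median of -0.06 that ranged from -0.28 to 0.16 over the alternatives. The most abundant were B2m and Tap1 of MHC class I presentation and the guanylate-binding protein Gbp2, with log2 fold changes of 0.11 (standard error 0.16), 0.08 (standard error 0.19), and -0.44 (standard error 0.28) and edgeR FDRs of 0.753, 0.874, and 0.438. That of Gbp2 was -0.11 without saline tumor 1 and -0.63 without saline tumor 2. Ciita, the transactivator of MHC class II genes, was the 1 gene past both thresholds, where 0.519% of tested genes were lower. It had 135, 110, 124, and 93.8 CPM in saline tumors and 51.9, 64.6, 62.6, and 61.6 CPM in treated tumors. No treated tumor reached the lowest saline tumor. Ciita fell by 0.94 on the log2 scale (standard error 0.13, edgeR FDR 0.0201), and its edgeR FDR was 0.0657 without saline tumor 3 and 0.0694 without mAb-DXd/IMQ tumor 4. The ISRE core was in 9 of the 13 promoter-matched genes of this list (69.2%).

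**Figure D4:**
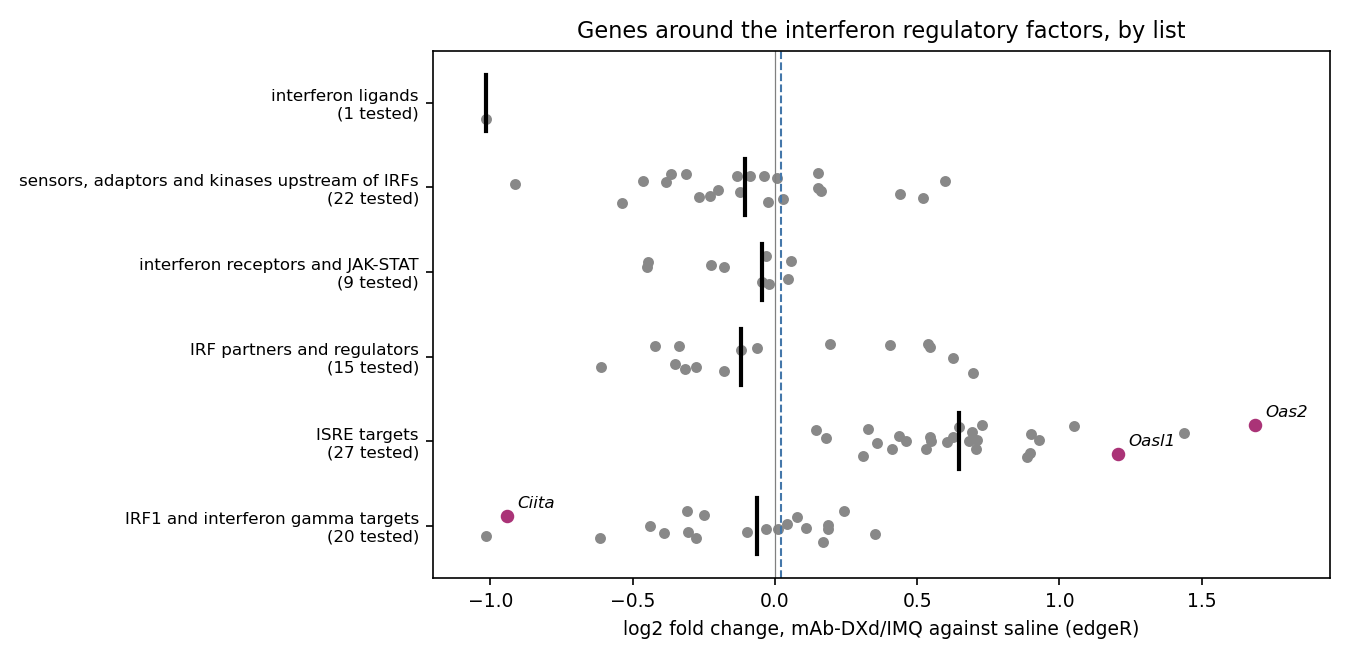
Log2 fold changes of the tested genes in 6 lists around the interferon regulatory factors, mAb-DXd/IMQ against saline tumors. Each point is a gene, placed at random height within its list, colored points passed both thresholds, black bars are list medians, and the dashed line is the median of all tested genes (0.02). The points of the ISRE list all lie above 0 with a median of 0.65, and those of the IRF1 and interferon gamma list lie on both sides with a median of -0.06.

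Genes whose levels followed Irf7 or Irf4 across the 8 tumors were sought by the root-mean-square distance between log2 CPM profiles, each centered on its own mean, among 14638 tested genes. Only these members spanned at least 1 on the log2 scale (2.38 for Irf7 and 2.29 for Irf4). Nearest to Irf7 were Oasl1 (distance 0.114), Phf11d (0.184), and Oas1g (0.185), where the median distance of all candidates was 0.82. Each was lowest in saline tumor 2 and did not overlap between groups. Nearest to Irf4 were Rtn1 (0.218), Themis (0.266), and Trac (0.285), with a median distance of 0.83. Each of these was highest in saline tumor 2 and lowest in mAb-DXd/IMQ tumor 3.

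**Figure D5:**
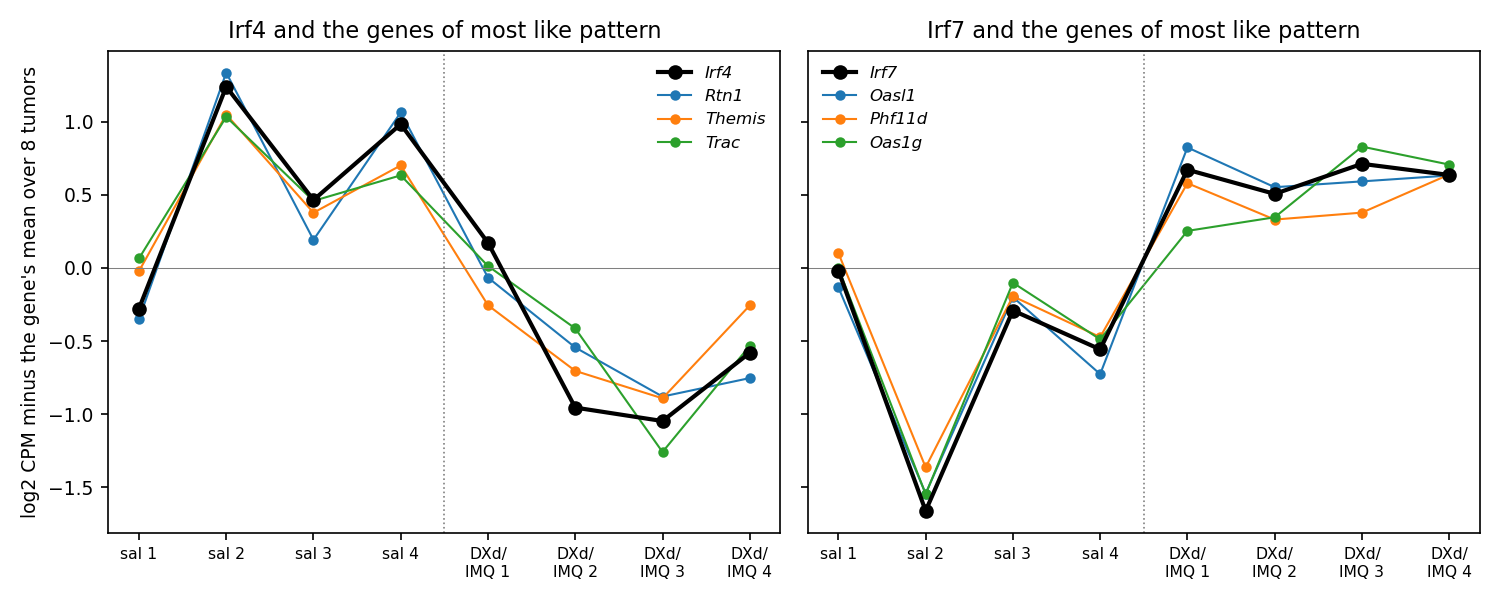
Log2 CPM minus each gene's mean over the 8 tumors, for Irf4 and Irf7 (black) and the 3 genes of nearest profile to each. Tumors left of the dotted line are saline and those right of it are mAb-DXd/IMQ, and lines only join the values of a gene. Saline tumor 2 is the highest tumor for the Irf4 group and the lowest for the Irf7 group.

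Several marker lists of leukocytes, in which Irf4, Irf5, and Irf8 are mainly expressed, had lower mean sums in mAb-DXd/IMQ tumors. The marker said to lead a list is the most abundant over the 8 tumors together. The 7 T-cell markers summed to 66.8, 105, 98.3, and 87.8 CPM in saline tumors and 59.3, 49.0, 31.7, and 44.9 CPM in treated tumors. The groups did not overlap, 7 of 7 markers had a log2 fold change below 0, and the most abundant was Cd8a. Cd8a fell by 1.22 on the log2 scale (standard error 0.17) and Cd4 by 1.91 (standard error 0.25), both with an edgeR FDR of 0.0201, which for both was 0.0657, 0.0846, and 0.0694 without saline tumor 3, saline tumor 4, and mAb-DXd/IMQ tumor 4. The 5 type 1 dendritic cell markers, led by Itgae, summed to 12.4, 37.9, 20.2, and 28.2 CPM and to 14.05, 12.9, 14.1, and 11.6 CPM, with 5 of 5 below 0. Like Irf4, this sum was highest in saline tumor 2 and low in saline tumor 1. The 6 plasma cell markers, led by Prdm1 (46.0% of their sum, log2 fold change 0.05), summed to 20.2, 56.9, 27.96, and 188 CPM and to 22.2, 22.3, 38.3, and 17.6 CPM, with overlap and with 4 of 5 tested markers below 0. Among them Igkc, the most abundant of these markers in saline tumors on average (39.6 CPM, with 127.5 CPM in saline tumor 4), fell by 5.40 on the log2 scale (standard error 1.14, edgeR FDR 0.0489), and it fell by 3.44 without saline tumor 4 (edgeR FDR 0.107). Its edgeR FDR was also between 0.0662 and 0.132 without any 1 other tumor except saline tumor 1, 0.0523 with library sizes alone, and 0.0578 with gene length offsets, and its FDR by limma voom was 0.281. Tnfrsf17 had at most 3 counts in each tumor. The part of these cell types in the levels of Irf4 and Irf8 was not tested.

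The 9 macrophage and monocyte markers, led by Lyz2 (52.5% of their sum), were at 1100, 6034, 2661, and 3261 CPM in saline tumors and 3373, 2433, 3120, and 2327 CPM in treated tumors. The saline range enclosed the treated range, with saline tumor 1 lowest and saline tumor 2 highest, as for Irf5. A log2 fold change below 0 was found for 9 of 9 markers, from -0.04 for Cd68 and Lyz2 to -1.37 for Mrc1. Among them Mrc1 was lower in treated tumors without overlap, as were 7.10% of tested genes. Its means were 197 CPM in saline and 76.5 CPM in treated tumors (log2 fold change -1.37, edgeR FDR 0.0574). The 6 plasmacytoid dendritic cell markers, a cell type known for high Irf7, summed to 183, 253, 233, and 232 CPM and to 192, 195, 145, and 164 CPM. Tcf4, which other cells express too, made up 97.6% of that sum, and the other markers had group means of at most 1.81 CPM. The log2 fold change was below 0 for 6 of 6 markers, with Cox6a2 at -0.05. Neutrophil markers (6, led by S100a9) summed to 225, 84.9, 92.4, and 125 CPM and to 33.0, 49.4, 51.4, and 67.2 CPM, without overlap. Their member Csf3r, the most abundant in treated tumors, fell by 0.80 on the log2 scale (standard error 0.16, edgeR FDR 0.0402), and the edgeR FDR was between 0.0587 and 0.134 without any 1 tumor other than mAb-DXd/IMQ tumor 1 and between 0.0501 and 0.0601 with upper quartile factors, library sizes alone, or gene length offsets. The part of these cells in the levels of Irf5 and Irf7 was not tested.

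The sums of the remaining marker lists had overlapping groups. Ptprc, the pan-leukocyte gene, was at 155 ± 22.9 CPM (SD, n = 4) in the saline group and 140 ± 35.5 CPM in the treated group. The 5 NK cell markers, led by Klrk1 and with Klra8 at 0 counts in every tumor, summed to 23.7 ± 6.07 and 24.2 ± 1.37 CPM, with Klrk1 below 0 on the log2 scale and the other 3 tested markers above 0 (1 of them without overlap), and the 6 B-cell markers to 2.12 ± 0.881 and 1.69 ± 0.420 CPM, a sum in which 1 marker was lower and another higher in treated tumors without overlap. The 5 epithelial markers (led by Krt18 and Krt8) summed to 2141 ± 337 and 2475 ± 577 CPM, with 5 of 5 above 0 on the log2 scale. The 5 fibroblast markers (led by Col1a1) summed to 4036 ± 1620 and 4019 ± 1630 CPM, with 2 above 0 and 3 below. The 4 endothelial markers (led by Pecam1) summed to 127 ± 42.6 and 158 ± 15.1 CPM, with 4 of 4 above 0. Col1a1 made up 62.9% of the fibroblast sum. In the fibroblast list Pdgfra was lower in treated tumors without overlap, as were 7.10% of tested genes. Its means were 95.9 and 68.8 CPM (log2 fold change -0.48, edgeR FDR 0.0679).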

How the data were processed

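The authors deposited 1 table of unnormalized read counts for 8 tumors, which also gives a length for each gene. The submitters' processing notes name HISAT2, HISAT, TopHat2, and build mm39, whereas 98.3% of the gene identifiers shared with GENCODE M21 had its GRCm38 coordinates, as did the 8 members. The read counter and the strandedness of counting were not given in the sources used here. Tumors were grouped by their labels.

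Genes were kept by filterByExpr (minimum count 10, minimum total count 15), scaled with TMM, and compared with edgeR 4.0.16 in R 4.3.3 (quasi-likelihood F-test, no covariates), with limma 3.58.1 and DESeq2 1.42.0 as alternatives. The study's methods name a later edgeR release and the same thresholds. CPM and RPKM were computed from the deposited counts and the deposited lengths. Standard errors were derived from the F statistic. The steps were tested on simulated data. Other scalings, filters, tests, gene length offsets, a replicate block, and leaving out each tumor were tried.

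The members, lists, and ratios were chosen with earlier results of these data known. Named genes were the members, list genes past both thresholds, the 3 most abundant genes of each list, the marker genes needed to describe each list, and the 3 genes of nearest pattern to each member that spanned at least 1 on the log2 scale. Irak1, Irf2bpl, Ifnb1, and Ifnk fell under that rule by abundance, and 1 other gene under it is not reported here. Promoter sequences came from RefSeq (GRCm38.p6), and reads were not used here.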

Additional observations from a re-analysis of the deposited data

Results flagged for a closer look

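In 5 of 108 groups of 4 tumors examined, the highest or lowest tumor stood apart by Dixon's ratio, the gap to its nearest neighbor over the range of the group, which exceeded the critical value for groups of that size. Chance alone gives about 1 in 20. None of the 5 was a level of an interferon regulatory factor gene or a ratio between such genes. The pan-leukocyte gene Ptprc was at 193 CPM in mAb-DXd/IMQ tumor 3 and between 119 and 125 CPM in the other treated tumors (ratio 0.91). Ifnb1 in mAb-DXd/IMQ tumor 4 was at 0.281 CPM and between 0.0825 and 0.107 CPM in the others (ratio 0.876), and Ifnk in the same tumor was at 0.225 CPM and between 0.0413 and 0.0642 CPM in the others (ratio 0.875). Igkc was at 127.5 CPM in saline tumor 4 and between 3.37 and 23.9 CPM in the other saline tumors (ratio 0.834). Csf3r was at 15 CPM in mAb-DXd/IMQ tumor 1 and between 21.8 and 22.9 CPM in the others (ratio 0.87).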

How the results depend on the processing

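Under 19 alternatives the log2 fold changes of Irf2, Irf3, Irf4, Irf5, Irf7, and Irf8 kept their direction. With a tumor left out, Irf1 ranged from -0.184 to 0.0356 (without saline tumor 1) and Irf9 from -0.00101 (without saline tumor 2) to 0.188. Past both thresholds, Irf7 had 1.14 with no filter and 1.14 with DESeq2, and with a tumor left out it passed in 2 of 8 fits, with 0.91 without saline tumor 2 and 1.36 without saline tumor 1. In the other 6 it lay between 1.12 and 1.23 and missed the FDR threshold (edgeR FDR 0.0858 to 0.175). Irf4 had -1.26 with DESeq2, and Irf2, with no fold change limit, -0.50. The number of members past the thresholds was 1 with no filter, 2 with DESeq2, 1 with no fold change limit, and 0 to 1 with a tumor left out, and 0 in the other alternatives. All genes past the thresholds, 197 in the fit as reported, numbered 358 with no filter, 787 with DESeq2, 117 with gene length offsets, and 10 to 203 with a tumor left out. Those in the 6 pathway lists, 3 in all as reported, numbered 6, 8, 1, and 0 to 5 in the same order. The cause of these shifts was not tested.

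Tumors that share a replicate number are from different mice, and their deviations from the group means correlated at -0.17, -0.0546, 0.0794, and -0.0672, so the numbers were not taken as pairing. With a replicate block 14 genes passed and 0 in the pathway lists, and with gene length offsets and the replicate block 12 and 0. With the block Irf2 was no longer past the FDR threshold (edgeR FDR 0.108, and 0.174 with gene length offsets as well), and no member passed both thresholds. The differences in the log2 ratios of Irf1 to Irf2 (0.431) and of Irf7 to Irf3 (1.20) cannot change with the replicate block, since each replicate number occurs once in each group, and with a tumor left out they lay between 0.362 and 0.504 and between 0.866 and 1.42.

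Some named genes near 0 changed sign. Stat2 was 0.0309 with upper quartile factors, 0.021 with library sizes, 0.0355 with gene length offsets, 0.0614 with these and the replicate block, and between -0.177 and 0.145 with a tumor left out (above 0 in 3 such fits). With gene length offsets Ikbkb moved from 0.0299 to 0.202 and B2m from 0.111 to 0.0181. With a tumor left out, Ikbkb lay between -0.0076 and 0.0939, B2m between -0.000866 and 0.203, and Tap1 between -0.0519 and 0.285. Low counts limit Irf4, which had between 33 and 210 counts per tumor.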
